A study of Homo sapiens with 22 samples.

Results

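PC9 is an established human lung adenocarcinoma line that depends on a mutated epidermal growth factor receptor (EGFR), and GR3 is a derivative of it, known from the published study as resistant to the EGFR inhibitor gefitinib. The comparison set 2 GR3 libraries against 2 libraries of parental PC9 cells, all treated with vehicle and no inhibitor, out of 22 libraries of polyadenylated RNA in 11 groups of 2. The 4 libraries were chosen by their labels, and the comparison covers the 14049 genes, of 17165 listed, that reached a CPM of 1, a level scaled to the total reads of the library, in at least 2 of the 4. Further groups served to place GR3. They were GR3 and parental cells given the inhibitor WZ4002 for 24 h, and 3 other vehicle-treated PC9 derivatives, GR2, gefitinib-tolerant and WZ4002-tolerant cells. The remaining groups were gefitinib-treated parental cells and drug-treated GR2 and tolerant cells. All 22 libraries were used to estimate the spread behind the standard errors and p-values. The labels give the dose of WZ4002 as 1 mM, a unit that is in doubt because such inhibitors are commonly used at micromolar doses. They do not say whether GR3 is 1 clone or a mixed population, or how long it had been off drug. Nor do they say whether the libraries of a pair came from separate cultures. The p-values therefore measure only how far libraries of the same group vary, pooled over the 22 libraries, which may be technical variation.

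EGFR is a receptor tyrosine kinase that drives the RAS, RAF and ERK cascade and the PI3K and AKT pathway, and in EGFR-mutant lung cancer these signals keep tumour cells alive. Resistance to EGFR inhibitors is known to arise by changes in the receptor itself, by signalling through other receptors such as AXL and MET, and with shifts of cell state towards a less epithelial phenotype. Cells given vehicle show how a derivative differs with no inhibitor added. How long GR3 had been off drug is not known, and the part of drug withdrawal in these differences was not tested.

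In vehicle, 3202 genes passed an adjusted p of 0.05 (limma on log2(CPM + 1), Benjamini-Hochberg adjustment over all genes tested), which is 22.8% of those tested. Of these, 1479 were higher in GR3, or 10.5% of the genes tested, and 1723 were lower, or 12.3%. Counts of list members called higher or lower are to be read against these shares. A difference of at least 2-fold was reached by 979 genes (6.97%), 457 of them higher (3.25% of those tested) and 522 lower (3.72%). The median difference over all genes was 0.01 on the log2 scale. These counts and shares are from the fit over all 22 libraries. With the 4 libraries fitted alone, 1053 genes passed (7.5%), 464 of them higher in GR3 and 589 lower. Library depth ranged from 36.1 to 42.8 M reads.

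Within each pair the 2 libraries were further apart than sampling noise gives, and the GR3 pair more so. The median standard deviation of a gene within a pair was 0.185 on the log2 scale in GR3 and 0.119 in parental cells, and the GR3 value was the highest of the 11 groups. GR3 library 1 was above library 2 in all 23 DNA replication genes, with a median gap of 1.49, and in all 20 mitosis genes, with a median gap of 1.16. In the parental pair the same gaps were 0.52 and 0.61. GR3 library 1 was also higher in glycolysis genes (median gap 0.74, against 0.41 in the parental pair) and cholesterol synthesis genes (0.88, against 0.004), and lower in genes of the integrated stress response (-1.05, against 0.29). Results on such genes are therefore given below with and without single libraries, and the part of these gaps in other results was not tested.

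**Figure D1:**
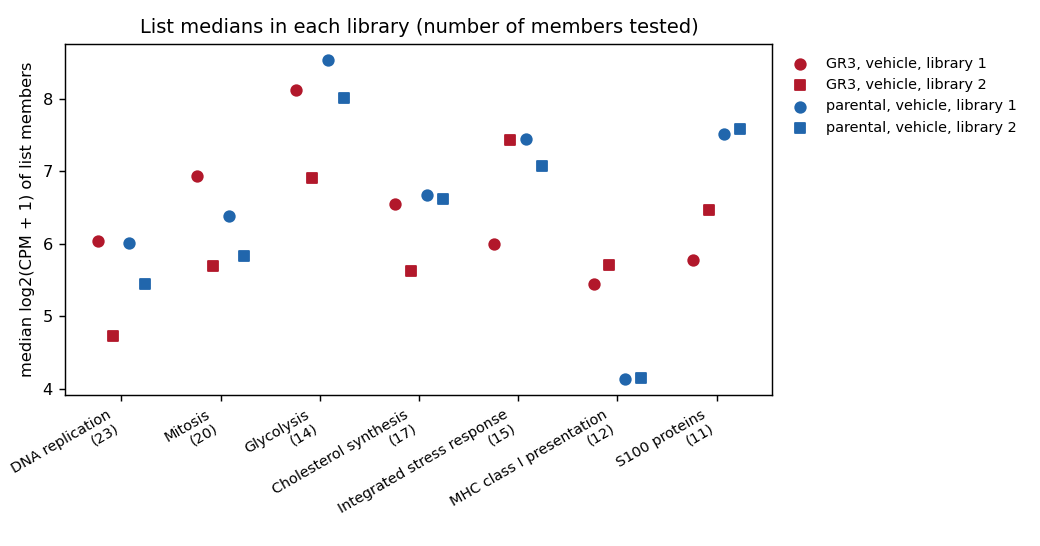
Median log2(CPM + 1) of the members of 7 gene lists (horizontal axis, number of members tested in brackets) in each of the 4 vehicle libraries, GR3 in red and parental in blue. In DNA replication, mitosis, glycolysis, cholesterol synthesis and the stress response the 2 GR3 libraries lie further apart than the 2 parental libraries, whereas in MHC class I presentation both GR3 libraries lie above both parental libraries and in S100 proteins both lie below.

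The differences of largest size were falls. PXDN, which encodes peroxidasin, an enzyme that cross-links collagen IV in basement membranes, had 0.07 and 0.25 CPM in GR3 cells, against 269 and 216 CPM in parental cells. In reads, this was 3 and 10 in GR3 and 9699 and 7927 in parental cells, and the log2 difference was -7.71 ± 0.16 (SE, adjusted p = 2.7e-14). GR3 thus held only a trace of an RNA that was abundant in both parental libraries. KRT13, a keratin of non-cornified mucosa, stood at 4.43 and 6.58 CPM in GR3 cells, against 344 and 412 CPM in parental cells (-5.88 ± 0.26, adjusted p = 1.8e-09). CEACAM6, an adhesion glycoprotein of epithelial surfaces, had 45.5 and 36.4 CPM in GR3 cells, against 1824 and 1820.3 CPM in parental cells (-5.45 ± 0.36, adjusted p = 9.2e-08). GABRE, a subunit of the GABA-A receptor, was near its detection limit in GR3, where 2 and 4 reads were counted, against 1278 and 1419 reads in parental cells (-5.14 ± 0.38, adjusted p = 3.7e-07). Each of these falls was many times the gap within either pair, though the genes were picked for large differences without overlap.

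The remaining genes among the 10 largest falls were CASP14, RARRES1, TCIM, CP, CA9 and SLC22A20P. CASP14, a caspase of epidermal cornification, had 42.2 and 48.5 CPM in GR3 cells, against 789.7 and 814 CPM in parental cells (-4.12 ± 0.33). RARRES1, a retinoid-inducible gene, had 8.54 and 28.7 CPM in GR3 cells, against 233 and 373 CPM in parental cells (-4.14 ± 0.44), and here the GR3 libraries differed from each other by more than 3-fold. TCIM, a small regulatory protein, had 0.09 and 0.13 CPM in GR3 cells, against 16.9 and 16.4 CPM in parental cells (-3.99 ± 0.30). The copper-carrying ferroxidase CP (-3.51 ± 0.64) and the hypoxia-inducible carbonic anhydrase CA9 (-3.46 ± 0.43) completed the group with SLC22A20P (-4.51 ± 0.24). The last is an annotated transporter pseudogene whose reads could come from related genes. CA9 was uneven in both pairs, with 1.7 and 0.25 CPM in GR3 cells, against 32.98 and 10.99 CPM in parental cells. The absence of overlap between the groups was a condition for naming the largest rises and falls and is no result, and 55% of all genes tested did not overlap.

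The largest rises were smaller, and parental levels were low. SPOCK1, a secreted proteoglycan of the testican family, had 94.3 and 62.9 CPM in GR3 cells, against 3.16 and 3.76 CPM in parental cells, a log2 difference of 4.13 ± 0.41 (adjusted p = 4.7e-06). AXL, the receptor tyrosine kinase that binds GAS6, had 142 and 128 CPM in GR3 cells, against 15.9 and 12.4 CPM in parental cells (3.18 ± 0.28, adjusted p = 1.5e-06). GLI2, a transcription factor of the Hedgehog pathway, had 11.6 and 9.17 CPM in GR3 cells, against 0.17 and 0.03 CPM in parental cells (3.36 ± 0.36). The absence of overlap in these 3 genes was a condition for naming them and is no result. AADACL3 was counted at 541 and 529 reads in GR3 and at 1 and 2 reads in parental cells (3.75 ± 0.20), and NELL2, a secreted glycoprotein, at 364 and 302 reads, against 5 and 5 (2.99 ± 0.16). These are on the log2(CPM + 1) scale, which understates the change of genes near 0.

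Some of the largest rises were uneven between the GR3 libraries. ALPP, placental alkaline phosphatase, had 96.7 and 254 CPM in GR3 cells, against 3.66 and 17.3 CPM in parental cells (4.10 ± 0.55), and its reads may be shared with near-identical alkaline phosphatase genes. H19, an imprinted long non-coding RNA, had 12.3 and 69.1 CPM in GR3 cells, against 1.03 and 1.47 CPM in parental cells (3.77 ± 0.60). SUSD2, a membrane protein, had 79.9 and 158 CPM in GR3 cells, against 10.7 and 9.27 CPM in parental cells (3.37 ± 0.67), and the scavenger receptor gene SCARA3 had 20.98 and 11.4 CPM in GR3 cells, against 0.64 and 0.71 CPM in parental cells (3.30 ± 0.43). TNC, the matrix glycoprotein tenascin C, had 18.3 and 8.44 CPM in GR3 cells, against 0.55 and 0.3 CPM in parental cells (3.25 ± 0.45). All 20 genes, the 10 largest rises and the 10 largest falls, passed in each of the 11 alternative settings tried, including the removal of each library in turn. By size the last rise named stood at 2.99 with the next gene also at 2.99, and the last fall at -3.46 with the next at -3.40.

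**Figure D2:**
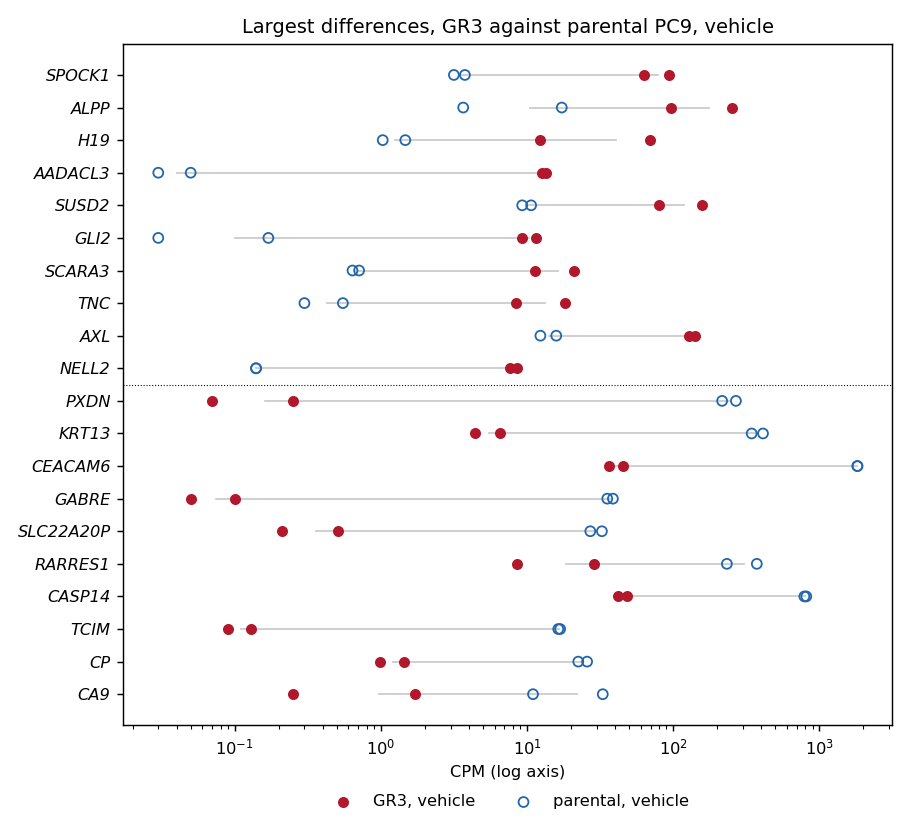
CPM on a log axis of the 10 largest rises (above the dotted line) and the 10 largest falls (below it) in each vehicle library, GR3 as filled red points and parental as open blue points, with grey lines joining group means. The 20 genes were chosen among those whose groups do not overlap. PXDN, GABRE and TCIM lie under 0.3 CPM in GR3.

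MHC class I genes rose as a group in GR3. Class I molecules display peptides at the cell surface, and the list holds the heavy chains, their partner beta-2 microglobulin, the immunoproteasome subunits that cut peptides, the TAP transporter that carries them, and the regulator NLRC5. Of its 12 members, all tested, 10 were higher in GR3 and 0 were lower, where 10.5% of all genes were called higher, and the list's median difference was 0.97 against 0.01 over all genes. HLA-B, a heavy chain, had 55.8 and 68.7 CPM in GR3 cells, against 7.95 and 7.04 CPM in parental cells (2.89 ± 0.28, adjusted p = 4.1e-06). NLRC5, a transcriptional activator of class I genes, had 15.6 and 24.2 CPM in GR3 cells, against 5.18 and 4.91 CPM in parental cells (1.76 ± 0.20), and PSMB9, an immunoproteasome subunit, had 6.39 and 5.23 CPM in GR3 cells, against 0.69 and 0.25 CPM in parental cells (2.22 ± 0.29). The groups did not overlap in any of these, as in 55% of all genes tested.

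The other class I members that passed rose as well. TAP1, a subunit of the peptide transporter, had 15.2 and 18.3 CPM in GR3 cells, against 4.79 and 3.03 CPM in parental cells (1.87 ± 0.26). The log2 differences were 1.17 for PSMB8, another immunoproteasome subunit, 1.06 for ERAP1, which trims peptides, 0.81 for B2M, 0.75 for HLA-C and 0.46 for TAPBP, the tapasin that loads them. HLA-E stood at 0.20 (adjusted p = 0.52) and TAP2 at 0.31 (adjusted p = 0.31), and neither passed. Between 8 and 10 members were called higher when any 1 library was left out. Reads of HLA-B and HLA-C can be exchanged between these similar genes, and between alleles and a reference that differs from them, so their separate sizes are uncertain. TAPBP did not pass without GR3 library 2 or parental library 1.

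The promoters of these genes are shown because the members moved together and class I promoters are known to carry shared elements. RefSeq windows from 250 bases before to 50 after the start (GRCh38.p14, read 5′ to 3′ on the gene's strand, the reference sequence and not that of PC9) were searched on both strands for CCAAT and for a TTTC repeat (TTTC, any 2 bases, TTTC), the spacing of interferon-response elements, with matches in capitals. Where matches of the TTTC repeat overlap, 1 run of capitals holds both.
HLA-B (chr6:31357130-31357429, minus strand): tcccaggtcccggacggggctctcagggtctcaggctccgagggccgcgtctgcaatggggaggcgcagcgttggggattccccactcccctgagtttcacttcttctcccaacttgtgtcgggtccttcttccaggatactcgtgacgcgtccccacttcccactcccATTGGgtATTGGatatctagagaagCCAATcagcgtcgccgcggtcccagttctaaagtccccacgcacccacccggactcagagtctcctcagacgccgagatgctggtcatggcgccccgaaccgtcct
HLA-C (chr6:31272043-31272342, minus strand): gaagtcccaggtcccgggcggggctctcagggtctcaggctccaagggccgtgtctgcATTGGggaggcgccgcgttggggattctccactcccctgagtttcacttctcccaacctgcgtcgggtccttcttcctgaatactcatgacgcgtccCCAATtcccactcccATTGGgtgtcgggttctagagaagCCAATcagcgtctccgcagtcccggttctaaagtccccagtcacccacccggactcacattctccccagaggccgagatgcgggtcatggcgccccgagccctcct
B2M (chr15:44711267-44711566, plus strand): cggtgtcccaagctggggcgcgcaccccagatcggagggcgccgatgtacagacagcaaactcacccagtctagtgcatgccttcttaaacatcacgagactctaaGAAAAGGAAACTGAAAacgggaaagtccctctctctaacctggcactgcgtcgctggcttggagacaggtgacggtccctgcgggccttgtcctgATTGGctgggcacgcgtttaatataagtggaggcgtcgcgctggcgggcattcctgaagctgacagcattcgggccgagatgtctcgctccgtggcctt
TAP1 (chr6:32853655-32853954, minus strand): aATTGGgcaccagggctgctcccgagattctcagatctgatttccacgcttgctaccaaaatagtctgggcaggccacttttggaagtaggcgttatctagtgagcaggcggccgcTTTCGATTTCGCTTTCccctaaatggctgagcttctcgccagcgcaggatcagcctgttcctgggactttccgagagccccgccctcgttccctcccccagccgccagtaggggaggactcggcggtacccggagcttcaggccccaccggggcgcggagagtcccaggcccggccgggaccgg
HLA-B holds 3 CCAAT matches and HLA-C holds 4, and neither holds the TTTC repeat in this window. B2M and TAP1 each hold 1 CCAAT match and 2 overlapping matches of the TTTC repeat. Over the 9 class I genes with a RefSeq window, 6 held CCAAT and 5 held the TTTC repeat, against 36.7% and 2.59% of the 10007 tested genes with such a window. Among the 330 genes that were at least 2-fold higher in GR3 and had a window, the TTTC repeat was in 5.76%. Among the 372 that were at least 2-fold lower it was in 2.96%. The 330 include class I genes such as TAP1, so the 5.76% is not separate from the class I count. A match in letters is a description and does not show that a factor binds there.

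Interferon-stimulated genes outside that list did not move as a group, where 10.5% of all genes were called higher and 12.3% lower. Of 12 tested, 3 were higher and 2 lower, with a median of 0.15 that turned to -0.13 without GR3 library 1, and 0 were lower without GR3 library 1 or without parental library 2. MX1, an antiviral GTPase, had 5.32 and 3.96 CPM in GR3 cells, against 1.3 and 0.6 CPM in parental cells (1.55 ± 0.22), and IFIH1, a sensor of viral RNA, had 4.55 and 4.6 CPM in GR3 cells, against 2.91 and 2.4 CPM in parental cells (0.61 ± 0.14). IRF7 was higher (0.83), while ISG15 (-0.66) and OAS1 (-0.97) were lower. Among ligands of immune checkpoints 0 of 9 were higher and 3 were lower, ICOSLG (-1.51), NECTIN2 (-0.54) and VTCN1 (-1.67), a count of 1 without GR3 library 2 or parental library 1. ICAM1, an adhesion molecule bound by leukocytes, rose to 45.7 and 70.1 CPM in GR3, against 18.9 and 27.2 CPM in parental cells (1.28 ± 0.37, adjusted p = 0.021). IFIH1 did not pass without parental library 2, and IRF7, ICOSLG and ICAM1 did not pass without GR3 library 2 or parental library 1. ISG15 did not pass without GR3 library 1, GR3 library 2 or parental library 2, and OAS1 and NECTIN2 did not pass without GR3 library 1 or parental library 2. VTCN1 did not pass without GR3 library 1, GR3 library 2 or parental library 1.

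The AXL receptor and its ligand were higher together, whereas MET was lower. The list held 14 tested receptor kinases other than the EGFR family, with their ligands and binding proteins. Of these 4 were higher and 3 lower, against 10.5% and 12.3% of all genes, and the median was -0.11. GAS6, the secreted ligand of AXL, had 39.1 and 26.3 CPM in GR3 cells, against 4.32 and 3.79 CPM in parental cells (2.71 ± 0.35, adjusted p = 5.9e-05). FGFR1 (1.21) and FGFR3 (1.29), receptors for fibroblast growth factors, were also higher. MET, the receptor for hepatocyte growth factor, had 77.6 and 54.6 CPM in GR3 cells, against 158 and 117 CPM in parental cells (-1.05 ± 0.21, adjusted p = 0.0024). DDR1, a collagen receptor, had 126 and 151 CPM in GR3 cells, against 237 and 259 CPM in parental cells (-0.84 ± 0.13), and IGFBP3, which binds insulin-like growth factors, had 88.1 and 75.01 CPM in GR3 cells, against 276 and 195 CPM in parental cells (-1.50 ± 0.31). The groups did not overlap in AXL, GAS6, MET, DDR1 or IGFBP3, as in 55% of all genes tested. FGFR3 did not pass without GR3 library 2 or parental library 1.

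EGFR RNA itself did not pass. EGFR had 764 and 1011 CPM in GR3 cells, against 658 and 554 CPM in parental cells, a log2 difference of 0.54 ± 0.24 (adjusted p = 0.13). Its 95% interval, unadjusted over genes, was 0.02 to 1.06. Of 10 tested genes of the EGFR family and its ligands, LRIG1, a negative regulator of the receptor, was higher (2.73 and 3.53 CPM in GR3, against 0.78 and 0.74 CPM in parental cells, 1.22 ± 0.23), and the ligand gene TGFA was lower (18.3 and 30.6 CPM in GR3, against 41.1 and 48.6 CPM in parental cells, -0.89 ± 0.28). The median of the list was -0.31 and turned to 0.22 without GR3 library 1, and 3 members were lower without GR3 library 2. TGFA did not pass without GR3 library 1, parental library 1 or parental library 2.

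Most genes that report ERK signalling did not pass (14 of 19), and the calls went both ways. The shares were near the 10.5% of all genes called higher and the 12.3% called lower. Of 19 tested, 2 were higher and 3 lower, with a median of -0.22, and 1 was higher whichever library was left out. DUSP6, the phosphatase that ERK induces and that switches ERK off, had 35.2 and 56.8 CPM in GR3 cells, against 110.3 and 103 CPM in parental cells (-1.23 ± 0.42, adjusted p = 0.043), and its call was lost in 5 of the 11 settings. EPHA4, an ephrin receptor, had 3.41 and 5.64 CPM in GR3 cells, against 14.1 and 16.99 CPM in parental cells (-1.61 ± 0.23), and IL1RL1, the receptor of interleukin-33, had 7.17 and 8.21 CPM in GR3 cells, against 92.8 and 78.2 CPM in parental cells (-3.31 ± 0.26). In the opposite direction EGR1, an immediate-early transcription factor, had 10.2 and 36.5 CPM in GR3 cells, against 1.52 and 2.78 CPM in parental cells (2.73 ± 0.43, adjusted p = 0.00035), and CCND1, cyclin D1, differed by 0.78. EGR1 is also 1 of 13 genes listed as responding to the handling of cells. It was the 1 member of that list called higher, FOS (-1.39) and FOSB (-0.60) were lower, 5 were lower without GR3 library 1, and the part of handling in the result was not tested. DUSP6 and FOSB did not pass without GR3 library 1, parental library 1 or parental library 2, and CCND1 did not pass whichever library was left out.

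**Figure D3:**
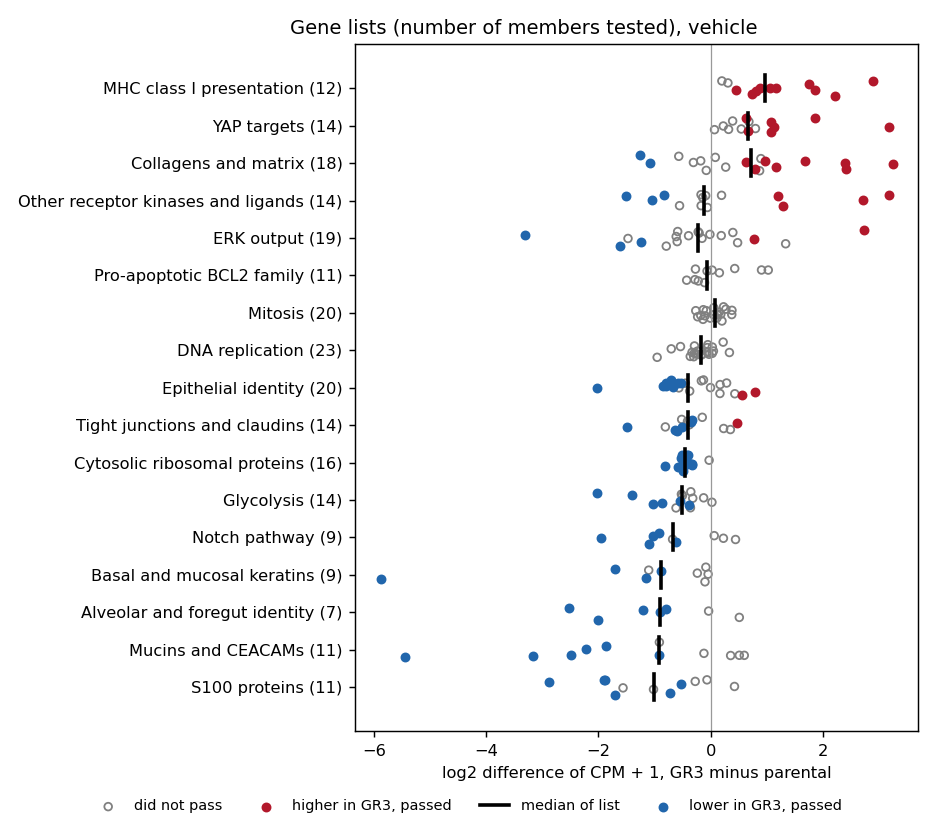
Log2 difference of CPM + 1, GR3 minus parental, for each tested member of 17 gene lists (rows, number of members tested in brackets), with members that passed as filled red (higher) or blue (lower) points, others as open grey points and the list median as a black bar. MHC class I and YAP target members lie at or right of 0, ribosomal protein members lie left of it, and DNA replication and mitosis hold no member that passed.

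Targets of YAP and TEAD, the transcription complex at the end of the Hippo pathway, leaned the same way. All 14 tested members were above 0, and the median was 0.68. Of them 7 passed as higher and 0 as lower, where 10.5% of all genes were called higher. AXL is a member and was the largest. LATS2, a kinase that restrains YAP and is itself a target, had 20.5 and 17.9 CPM in GR3 cells, against 7.04 and 9.41 CPM in parental cells (1.14 ± 0.18), and AJUBA, a LIM-domain protein, had 28.3 and 48.7 CPM in GR3 cells, against 17.7 and 16.5 CPM in parental cells (1.08 ± 0.23). Their groups did not overlap, as in 55% of all genes tested. The count fell to 3 without GR3 library 2 and to 5 without parental library 2, with the medians at 0.59 and 0.64. AJUBA did not pass without GR3 library 2.

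Matrix genes leaned upward, where 10.5% of all genes were called higher. The share of them called lower was near the 12.3% of all genes. Of 18 tested collagens and matrix genes 8 were higher and 2 lower, with a median of 0.71, and only 4 were called higher without GR3 library 2 or without parental library 1. COL5A1, a fibrillar collagen chain, had 16.5 and 12.2 CPM in GR3 cells, against 1.8 and 1.88 CPM in parental cells (2.42 ± 0.30), and THBS1, thrombospondin 1, had 96.3 and 112 CPM in GR3 cells, against 22.03 and 16.1 CPM in parental cells (2.40 ± 0.40). The collagen VI chains COL6A1 (-1.26) and COL6A2 (-1.07) were lower. Of 12 integrins 1 was higher, ITGA1 (0.95), a collagen-binding chain. ITGA1 did not pass without GR3 library 1 or parental library 1.

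Mesenchymal genes were split in direction. Of 13 tested, 8 were above 0 and 5 below, and the median was 0.75. Of them 3 were called higher and 2 lower, against 10.5% and 12.3% of all genes. SPARC, a matrix glycoprotein, had 3.15 and 5.92 CPM in GR3 cells, against 0.47 and 0.33 CPM in parental cells (1.94 ± 0.22), and the transcription factors SNAI1 (0.96) and SNAI2 (1.33) were higher at low levels. PXDN was among the members that fell. In the TGF-beta pathway 0 of 16 were higher and 2 were lower, ID1 (-2.01) and SMAD3 (-0.56), a share near the 12.3% of all genes called lower. SNAI1 did not pass without parental library 1, and SNAI2 did not pass without GR3 library 2 or parental library 2. SMAD3 did not pass without parental library 2.

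Epithelial genes were lower in part and were still abundant. Of 20 tested, 8 were lower and 2 higher, against 12.3% and 10.5% of all genes, with a median of -0.41, and 5 were called lower without GR3 library 2 or without parental library 1. GRHL1, a grainyhead factor of epithelial barriers, had 11.6 and 10.8 CPM in GR3 cells, against 47.1 and 50.3 CPM in parental cells (-2.03 ± 0.16, adjusted p = 5.2e-07). RAB25, an epithelial trafficking GTPase, had 35.4 and 41.7 CPM in GR3 cells, against 64.6 and 62.8 CPM in parental cells (-0.71 ± 0.13), and the membrane protease gene ST14 had 233 and 192 CPM in GR3 cells, against 399 and 337 CPM in parental cells (-0.79 ± 0.15). The keratins of simple epithelium KRT8 (-0.58), KRT18 (-0.52) and KRT19 (-0.85) and the adhesion molecule EPCAM (-0.79) were each lower by less than 2-fold. P-cadherin, CDH3 (0.80), and the factor GRHL2 (0.56) were higher. Fitted alone, the 4 libraries gave 1 lower and 1 higher of the 20 genes. The summed level of the 6 markers that define the epithelial line (EPCAM, CDH1, KRT7, KRT8, KRT18 and KRT19) was 3110 and 2777 CPM in GR3, against 4695 and 4209 CPM in parental cells, and the lowest single value among the 6 was 148 CPM. KRT8, KRT18, EPCAM and GRHL2 did not pass without GR3 library 2 or parental library 1, and CDH3 did not pass without parental library 2.

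Of 14 tight junction genes 6 were lower and 1 higher, against 12.3% and 10.5% of all genes, with a median of -0.39. When the 4 libraries were fitted alone, 1 was lower and 0 were higher. CLDN1, claudin 1, had 18.1 and 28.3 CPM in GR3 cells, against 57.8 and 73.4 CPM in parental cells (-1.48 ± 0.36), and CLDN12 had 24.1 and 25.3 CPM in GR3 cells, against 36.4 and 40.9 CPM in parental cells (-0.63 ± 0.15), while MARVELD3, a junction protein, was higher (0.47). The count depended on the libraries, with 0 members called lower without parental library 2, 2 without GR3 library 1 and 3 without parental library 1. CLDN1 did not pass without GR3 library 1 or parental library 2, and CLDN12 did not pass without parental library 2. MARVELD3 did not pass without parental library 1.

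Keratins and factors of particular epithelia were also lower. Among 9 tested basal and mucosal keratins and factors 4 were lower and 0 higher, with a median of -0.88. Over all genes 12.3% were called lower. KRT5, a keratin of basal cells, had 28.9 and 22.2 CPM in GR3 cells, against 92.3 and 78.4 CPM in parental cells (-1.71 ± 0.33). KRT6A (-0.88) and KRT16 (-1.15) were also lower, and KRT6A shares reads with close paralogs. Among 7 alveolar and foregut genes 5 were lower and 0 higher, with a median of -0.90, and the number was 2 without parental library 2. HOPX, a homeodomain protein of alveolar type I cells, had 0.19 and 0.18 CPM in GR3 cells, against 3.33 and 4.23 CPM in parental cells (-2.01 ± 0.20), and the foregut transcription factor GATA6 had 4.64 and 4.62 CPM in GR3 cells, against 13.97 and 10.2 CPM in parental cells (-1.20 ± 0.20). SOX9 (-0.79), FOXA1 (-0.90) and the surfactant gene SFTPB (-2.52) were the others that fell. KRT6A did not pass without GR3 library 2 or parental library 1, and KRT16 and SFTPB did not pass without GR3 library 1 or parental library 2. SOX9 did not pass without parental library 2, and FOXA1 did not pass without GR3 library 2 or parental library 2.

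Secretory surface genes were lower as well. Of 11 mucins, CEACAMs and secretory genes 6 were lower and 0 higher, with a median of -0.93, where 12.3% of all genes were called lower. CEACAM5, carcinoembryonic antigen, had 0.79 and 1.5 CPM in GR3 cells, against 16.6 and 19.5 CPM in parental cells (-3.17 ± 0.38), alongside CEACAM6, with which it can share reads. AGR2, a chaperone of mucin folding, had 9.24 and 14.8 CPM in GR3 cells, against 68.8 and 72.8 CPM in parental cells (-2.50 ± 0.41). MUC5B (-2.22), MUC20 (-1.87) and the iron-binding secretory protein gene LCN2 (-0.93) were also lower. GR3 library 1 was below library 2 in all but 1 of the 11 members, and leaving it out gave 3 lower and 3 higher. Without parental library 2 the list also had 3 lower. The calls of CEACAM6, CEACAM5 and AGR2 held without each library in turn. MUC5B did not pass without GR3 library 1, parental library 1 or parental library 2, and MUC20 and LCN2 did not pass without GR3 library 1 or parental library 2.

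S100 proteins, small calcium-binding proteins of epithelium and inflammation, gave 6 lower and 0 higher of 11, with a median of -1.02, and between 6 and 8 were lower with any 1 library left out. S100A9, which pairs with S100A8 as calprotectin, had 92.1 and 87.3 CPM in GR3 cells, against 632 and 709.9 CPM in parental cells (-2.89 ± 0.43, adjusted p = 0.0002). Its partner S100A8 was lower too (-1.90), at a low level. S100A14 had 53.6 and 65.9 CPM in GR3 cells, against 200.04 and 191 CPM in parental cells (-1.70 ± 0.13, adjusted p = 5.1e-07), and S100A16 had 114 and 114 CPM in GR3 cells, against 181 and 197 CPM in parental cells (-0.72 ± 0.13). S100A6 (-1.88) and S100A10 (-0.53) were the remaining falls in this list, where 12.3% of all genes were called lower.

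Of 9 Notch pathway genes 5 were lower and 0 higher, against 12.3% and 10.5% of all genes, with a median of -0.68. NOTCH3, a receptor, had 91.1 and 90.95 CPM in GR3 cells, against 334 and 382 CPM in parental cells (-1.96 ± 0.23, adjusted p = 3.2e-05). HES1, a transcriptional repressor that Notch induces, had 23.9 and 32.3 CPM in GR3 cells, against 59.6 and 56.2 CPM in parental cells (-1.03 ± 0.20), and the related HEY1 had 4.08 and 3.13 CPM in GR3 cells, against 8.09 and 7.28 CPM in parental cells (-0.92 ± 0.28). The ligands JAG1 (-1.10) and JAG2 (-0.61) were also lower. The other receptors did not pass: NOTCH2 had 281 and 268 CPM in GR3 cells, against 217 and 187 CPM in parental cells (0.44 ± 0.17, adjusted p = 0.076), and NOTCH1 had 18.04 and 26.7 CPM in GR3 cells, against 18.8 and 18.4 CPM in parental cells (0.23 ± 0.24, adjusted p = 0.55). NOTCH3 was below both parental libraries in each GR3 library by more than 3-fold. The count was 2 without GR3 library 2 or without parental library 1. In the Wnt pathway 2 of 13 were higher and 2 lower, shares near the 10.5% and 12.3% of all genes. LEF1 (1.21) and WNT5A (0.93) rose, and LGR4 (-1.09) and the secreted inhibitor DKK1 (-1.42) fell. HEY1, WNT5A and DKK1 did not pass without GR3 library 2, parental library 1 or parental library 2, and JAG1 did not pass without GR3 library 1, GR3 library 2 or parental library 1. JAG2 did not pass without GR3 library 2 or parental library 1.

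Genes of glucose metabolism were lower in part, and the extent depended on the library. Of 14 glycolysis genes 6 were lower and 0 higher, with a median of -0.51, where 12.3% of all genes were called lower. HK2, the inducible hexokinase that traps glucose in the cell, had 22.8 and 28.8 CPM in GR3 cells, against 112 and 103 CPM in parental cells (-2.03 ± 0.25, adjusted p = 4.4e-05). ALDOA, aldolase A, had 1001 and 587 CPM in GR3 cells, against 1779 and 1385 CPM in parental cells (-1.03 ± 0.21), and PGK1, phosphoglycerate kinase, had 271 and 110.3 CPM in GR3 cells, against 620.2 and 335 CPM in parental cells (-1.39 ± 0.31). HK2 was similar in the 2 GR3 libraries, whereas ALDOA and PGK1 were much lower in library 2. Only 1 of the 14 glycolysis genes was lower when the 4 libraries were fitted alone. The count was 11 without GR3 library 1, 2 without GR3 library 2 and 2 without parental library 1. Of 10 hypoxia genes 3 were lower, CA9, CA12 (-2.63) and NDRG1 (-1.57), and the vasodilator peptide gene ADM was higher (1.15). Parental library 1 was above library 2 in all 10 of them, by a median of 0.87. PGK1 and NDRG1 did not pass without GR3 library 2 or parental library 1, and ADM did not pass without GR3 library 1 or parental library 2.

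Cholesterol synthesis gave 4 lower and 0 higher of 17, with a median of -0.66, and this rose to 10 without GR3 library 1 and dropped to 1 without GR3 library 2 and to 2 without parental library 1 or parental library 2. SREBF2, the transcription factor that controls the pathway, had 118 and 129.95 CPM in GR3 cells, against 290.4 and 304 CPM in parental cells (-1.25 ± 0.19, adjusted p = 0.00023). The SREBF2 libraries of GR3 were close to each other and far below those of parental cells. Over all genes tested 12.3% were called lower. Of 15 genes of the integrated stress response 3 were lower: ATF4, its central transcription factor (146 and 172 CPM in GR3, against 355 and 291 CPM in parental cells, -1.02 ± 0.13), PSPH (-0.60) and VLDLR (-1.19). The median of -0.22 and the counts depended on single libraries: without GR3 library 1 there were 2 higher and 2 lower with a median of 0.35, without GR3 library 2 there were 8 lower with a median of -0.68, and without parental library 1 there was 1 lower with a median of 0.01. PSPH did not pass without parental library 1, and VLDLR did not pass without GR3 library 1 or parental library 1.

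Cytosolic ribosomal proteins were lower by small steps of unequal size, with log2 differences between -0.82 and -0.03. All 16 tested were below 0 without overlap of the groups, where 55% of all genes tested did not overlap. Of them 14 passed as lower, where 12.3% of all genes were called lower, and the median was -0.45. RPL3 had 365 and 409 CPM in GR3 cells, against 748 and 620.3 CPM in parental cells (-0.82 ± 0.12), RPL7A had 140.2 and 126 CPM in GR3 cells, against 214 and 187 CPM in parental cells (-0.58 ± 0.11), and RPS9 had 163 and 163 CPM in GR3 cells, against 239 and 217 CPM in parental cells (-0.48 ± 0.10). The number passing was 7 without GR3 library 2, 5 without parental library 1 and 0 when the 4 libraries were fitted alone. Listed genes held 54.6% of all CPM in each GR3 library, against 59.7% and 58.2% in the parental libraries, and the part of that shift in the result was not tested. Ribosomal proteins have many pseudogene copies to which reads can be assigned.

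Respiratory chain subunits went both ways, with 3 of 16 higher (1 without parental library 2), among them NDUFS1 (0.55) and UQCRC1 (0.58), and 4 lower (1 without any library other than GR3 library 1), led by ATP5F1A (-0.75). Of 18 NRF2 and glutathione genes 5 were lower and 0 higher, with a median of -0.33, and 3 were lower without either parental library. AKR1B10, an aldo-keto reductase induced by oxidative stress, had 145 and 221 CPM in GR3 cells, against 585 and 824 CPM in parental cells (-1.95 ± 0.41), and the related AKR1C3 had 83.97 and 109 CPM in GR3 cells, against 181 and 189 CPM in parental cells (-0.94 ± 0.16), with reads that may be shared within the family. The groups did not overlap in either gene, as in 55% of all genes tested. Over all genes 10.5% were called higher and 12.3% lower. With the 4 libraries fitted alone, 0 of the 16 respiratory chain subunits passed. In that fit 2 of the 18 NRF2 and glutathione genes were lower. UQCRC1 did not pass without parental library 2.

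Genes of the cell cycle gave no call. By limma, DNA replication had 0 of 23 higher and 0 lower, with a median of -0.17, and mitosis had 0 of 20 in either direction, with a median of 0.09. At an unadjusted p under 0.05 these were 1 lower and 0, and limma-voom on recovered read numbers also gave 0 and 0. These medians hid the gap within the GR3 pair: without GR3 library 1 the replication median was -0.84 with 10 genes lower, and without GR3 library 2 it was 0.48 with 0 called. For mitosis they were -0.57 and 0.65. No direction for proliferation genes can be read from this pair. Among 13 inhibitors of the cycle and quiescence genes 3 were higher and 2 lower, against 10.5% and 12.3% of all genes. CDKN1B, the p27 inhibitor, had 57.3 and 55.3 CPM in GR3 cells, against 36.8 and 34.9 CPM in parental cells (0.64 ± 0.13). CDKN1C (1.02) and RB1 (0.39) were also higher, and TOB1 (-0.84) and BTG1 (-0.70) were lower. RB1 did not pass without GR3 library 2 or parental library 1, and BTG1 did not pass without GR3 library 1.

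Genes that set the threshold for apoptosis gave few calls. By limma, 0 of 11 pro-apoptotic BCL2 family members passed in either direction, with a median of -0.06. At an unadjusted p under 0.05, 3 were higher and 0 lower, limma-voom gave 0, and 3 were called higher without GR3 library 1. BCL2L11, which encodes BIM, the killer protein that EGFR inhibitors induce, had 19.6 and 30.4 CPM in GR3 cells, against 17.2 and 18.6 CPM in parental cells (0.43 ± 0.18, adjusted p = 0.1). MCL1, a survival protein, had 146 and 156 CPM in GR3 cells, against 134 and 127 CPM in parental cells (0.21 ± 0.13, adjusted p = 0.26). BCL2L1, the gene of BCL-XL, was the single call of 4 survival genes (-0.48 ± 0.16, adjusted p = 0.045) and lost it in 5 of the 11 settings. In the death receptor pathway 2 of 14 were higher and 2 lower, shares near the 10.5% and 12.3% of all genes. CASP8, the initiator caspase, had 14.3 and 11.4 CPM in GR3 cells, against 28.2 and 25.01 CPM in parental cells (adjusted p = 8.7e-05). BCL2L1 did not pass without GR3 library 1, parental library 1 or parental library 2.

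Other lists held few calls. The 1 of 17 chromatin enzymes and 1 of 11 aldehyde dehydrogenases called higher were shares no larger than the 10.5% of all genes called higher. SESN3, a stress-induced brake on mTORC1, had 7.1 and 6.99 CPM in GR3 cells, against 0.42 and 0.49 CPM in parental cells (2.47 ± 0.36), and its relative SESN1 was lower (-0.81). HDAC4, a class IIa histone deacetylase, was the 1 call among 17 chromatin enzymes, with 54.6 and 54.00 CPM in GR3 cells, against 21.9 and 23.9 CPM in parental cells (1.21 ± 0.17). TERT, the catalytic subunit of telomerase, had 0.49 and 0.56 CPM in GR3 cells, against 7.4 and 7.28 CPM in parental cells (-2.45 ± 0.27, adjusted p = 1.6e-05). Of 6 drug transporters ABCC4 was higher (1.87), and ABCC1 (-0.71) and ABCG2 (-1.15) were lower, a count of 0 lower without parental library 2. ALDH7A1 (0.80) was the 1 call of 11 aldehyde dehydrogenases, and the adhesion molecule gene NCAM1 (1.35) the 1 call of 3 neuroendocrine genes. SESN1, ABCC4 and NCAM1 did not pass without GR3 library 2 or parental library 1, and ABCC1 did not pass without GR3 library 1 or parental library 2. ABCG2 did not pass without GR3 library 2, parental library 1 or parental library 2, and ALDH7A1 did not pass without parental library 2.

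Most listed markers of other cell types were scarce in all 4 libraries. Of 10 leukocyte markers 2 were listed, CD14 and ITGAM, with summed levels of 2.99 and 2.95 CPM in GR3, against 0.70 and 1.28 CPM in parental cells. ITGAM (1.19 ± 0.25) and, from a wider list, CD74 (1.17 ± 0.33) were called higher at these low levels. Of 6 endothelial markers 4 were listed, at 8.09 and 16.5 CPM in GR3, against 14.9 and 15.4 CPM in parental cells, and of 7 fibroblast markers 4, at 10.5 and 8.98 CPM in GR3, against 12.8 and 11.7 CPM in parental cells. CDH5 made up nearly all of the endothelial sum and COL1A1 nearly all of the fibroblast sum. The other 3 listed markers of each type were under 1 CPM. In such bulk RNA a smaller share of cells of 1 kind and less RNA per cell cannot be told apart. CD74 did not pass without GR3 library 2, parental library 1 or parental library 2.

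The content of CG, the dinucleotide that DNA methylation acts on, differed little between the promoters of genes that rose and of all genes, and was lower for genes that fell. The median number of CG in the same 300-base RefSeq windows was 25.5 for genes at least 2-fold higher in GR3, 21 for genes at least 2-fold lower and 26 for all tested genes with a window. The windows of 2 of the largest falls are shown because their CG content is far apart, with CG in capitals.
PXDN (chr2:1744466-1744765, minus strand, GRCh38.p14): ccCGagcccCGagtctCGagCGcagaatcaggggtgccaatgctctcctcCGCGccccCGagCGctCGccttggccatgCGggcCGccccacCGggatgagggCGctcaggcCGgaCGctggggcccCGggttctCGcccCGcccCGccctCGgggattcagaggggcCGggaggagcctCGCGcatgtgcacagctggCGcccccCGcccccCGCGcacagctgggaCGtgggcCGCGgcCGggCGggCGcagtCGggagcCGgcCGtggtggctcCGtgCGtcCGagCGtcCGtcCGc
CEACAM6 (chr19:41755280-41755579, plus strand, GRCh38.p14): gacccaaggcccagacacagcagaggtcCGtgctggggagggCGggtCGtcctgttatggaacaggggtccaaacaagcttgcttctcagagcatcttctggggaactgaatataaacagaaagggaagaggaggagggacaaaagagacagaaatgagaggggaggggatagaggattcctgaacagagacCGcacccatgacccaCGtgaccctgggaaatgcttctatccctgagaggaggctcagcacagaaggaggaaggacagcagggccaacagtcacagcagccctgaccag
PXDN holds 42 CG and CEACAM6 holds 5, and both genes were almost silent or strongly reduced in GR3. Methylation was not measured in these libraries.

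Set against the other vehicle-treated derivatives, some differences set GR3 apart from every other population, and for others GR3 lay near the drug-tolerant cells. The tests of GR3 against each population called 4947 genes against GR2 (35.2% of those tested), 3715 against gefitinib-tolerant cells (26.4%) and 4003 against WZ4002-tolerant cells (28.5%). These comparisons share the GR3 libraries with each other and with the comparison against parental cells, so values are given gene by gene. PXDN was at 0.07 and 0.25 CPM in GR3, against 126 and 118 in GR2, 249.9 and 293 in gefitinib-tolerant, 243 and 276 in WZ4002-tolerant and 269 and 216 in parental cells. It was lower in GR3 than in each population, with log2 differences of -6.73 against GR2, -7.87 against gefitinib-tolerant and -7.81 against WZ4002-tolerant cells (adjusted p = 2.2e-13, 1.9e-14 and 2.2e-14). The other 4 populations were all above 118 CPM.

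KRT13, CEACAM6, GABRE and TCIM were likewise lower in GR3 than in every other population, and AADACL3, NELL2, H19, SUSD2 and GLI2 were higher than in every other. CEACAM6 was at 45.5 and 36.4 CPM in GR3, against 2210.3 and 2225 in GR2, 605 and 879 in gefitinib-tolerant, 1034 and 773 in WZ4002-tolerant and 1824 and 1820.3 in parental cells. AADACL3 was at 12.6 and 13.4 CPM in GR3 and at or under 0.33 CPM in all libraries of the other 4 populations. Each of these 9 genes passed against GR2, gefitinib-tolerant and WZ4002-tolerant cells.

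AXL, HLA-B, S100A9 and NOTCH3 followed another order, with GR3 near the tolerant populations and GR2 between them and parental cells or beside the parental level. AXL was at 142 and 128 CPM in GR3, 181 and 122 in gefitinib-tolerant, 124 and 137 in WZ4002-tolerant, 31.2 and 30.6 in GR2 and 15.9 and 12.4 in parental cells. GR3 exceeded GR2 by 2.09 ± 0.28 (adjusted p = 3.5e-05) and differed from gefitinib-tolerant cells by -0.14 ± 0.28 (95% interval -0.72 to 0.44, adjusted p = 0.75). HLA-B was at 55.8 and 68.7 CPM in GR3, 56.6 and 69.8 in gefitinib-tolerant, 51.1 and 83.6 in WZ4002-tolerant, 6.39 and 6.54 in GR2 and 7.95 and 7.04 in parental cells, and GR3 differed from gefitinib-tolerant cells by -0.02 ± 0.28 (95% interval -0.61 to 0.57). For NOTCH3 the levels were 91.1 and 90.95 CPM in GR3, 77.8 and 124 in gefitinib-tolerant, 137 and 86.3 in WZ4002-tolerant, 336 and 334 in GR2 and 334 and 382 in parental cells. GR3 and the tolerant populations could not be ordered in these genes beyond their spread.

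**Figure D4:**
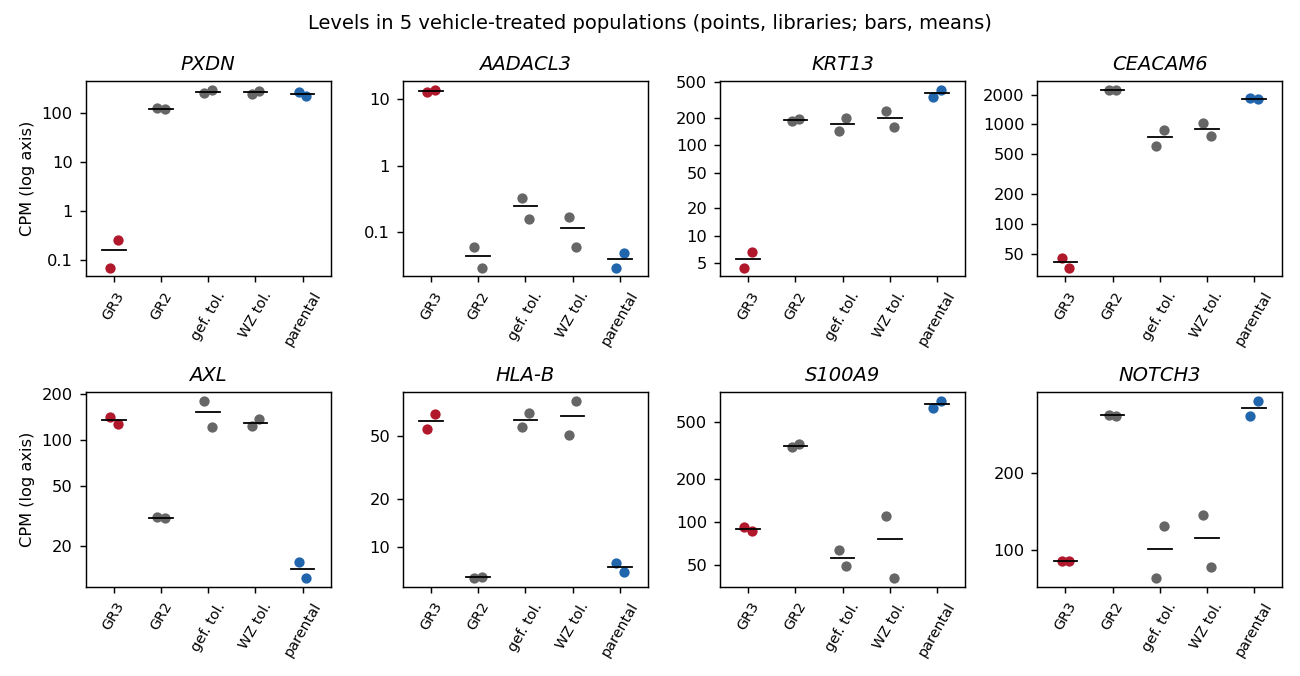
CPM on a log axis in the 2 libraries (points) of GR3 (red), GR2, gefitinib-tolerant and WZ4002-tolerant cells (grey) and parental cells (blue), all with vehicle, with bars at the means. In the upper row (PXDN, AADACL3, KRT13, CEACAM6) GR3 stands apart from the other 4 populations, and in the lower row (AXL, HLA-B, S100A9, NOTCH3) it lies near the tolerant populations.

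Most of the large vehicle differences were also present in separate libraries of GR3 and parental cells treated with WZ4002. There, 4271 genes passed (30.4% of those tested), 2083 of them higher in GR3 (14.8%) and 2188 lower (15.6%). Of the 3202 genes called in vehicle, 2986 had the same sign under WZ4002 and 1936 also passed there, which is 60.5% of the vehicle calls and 45.3% of the WZ4002 calls. Over all genes tested 70.1% had the same sign. Of the 979 genes that differed at least 2-fold in vehicle, 959 had the same sign, 765 passed in that direction and 1 passed in the opposite one. PXDN had 0.06 and 0.23 CPM in GR3 with WZ4002, against 114 and 126 CPM in parental cells with WZ4002 (-6.72 ± 0.16), and KRT13 had 16.9 and 18.95 CPM, against 1489 and 2709.7 CPM (-6.73 ± 0.26). HLA-B had 95.6 and 125 CPM in GR3 with WZ4002, against 12.03 and 24.9 CPM in parental cells with WZ4002 (2.59 ± 0.28), and AXL had 145 and 81.3 CPM, against 5.94 and 8.81 CPM (3.73 ± 0.28).

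By list, MHC class I again had 10 of 12 higher and 0 lower under WZ4002, YAP targets 8 of 14 higher, mucins and CEACAMs 7 of 11 lower, Notch genes 6 of 9 lower and basal and mucosal keratins 7 of 9 lower. Other lists gave other counts. Glycolysis had 2 higher and 1 lower of 14, NRF2 and glutathione genes had 5 higher and 0 lower of 18, and DNA replication had 9 higher and 0 lower of 23. The change of the GR3 to parental difference between WZ4002 and vehicle was itself tested and passed for 158 genes (1.12% of those tested), 86 upward (0.612%) and 72 downward (0.512%). That number ranged from 25 to 1035 when single libraries were left out, and 0 members of the glycolysis and DNA replication lists and 1 of the NRF2 list passed it.

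**Figure D5:**
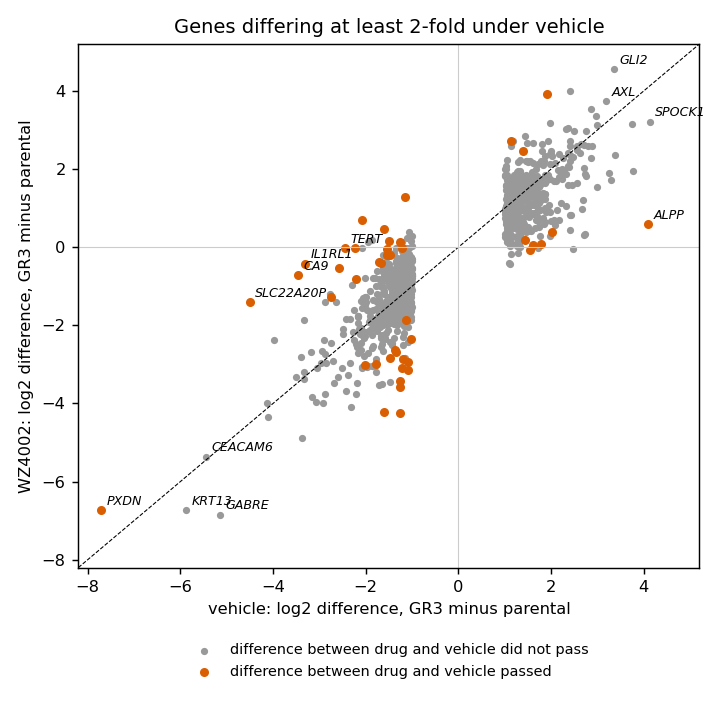
Log2 difference, GR3 minus parental, under WZ4002 (vertical axis) against the same under vehicle (horizontal axis) for the 979 genes that passed and differed at least 2-fold in vehicle, from separate libraries, with the line of equality dashed and genes whose difference changed with the drug in orange. Points lie mainly in the lower left and upper right, where 959 genes have the same sign, and 44 genes are orange.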

How the data were processed

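Polyadenylated RNA of PC9 cells and derivatives was extracted on columns and made into libraries with a directional kit, per the labels' protocols. The submitters' processing notes name STAR, HTSeq and the hg19 build, with versions and strand setting not given in the sources used here. The deposited values are CPM, scaled by the authors to the total of each library and rounded to 2 decimals, for 17165 genes. The table holds 0 values of 0, so genes silent in any library were not analysed here. CPM fell on whole multiples of 1 read for at least 99.79% of values per library (tolerance 0.005 CPM), which gave 36.1 to 42.8 M reads in the 4 libraries compared.

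The values were tested as log2(CPM + 1) with limma 3.58.1 (R 4.3.3, empirical Bayes with trend), in 1 fit over 11 group means and 22 libraries with 11 residual degrees of freedom, at a Benjamini-Hochberg adjusted p of 0.05. The filter, a CPM of 1 or more in 2 or more of the 4 libraries, left out 3116 genes. Errors are standard errors of the fit, which pools the spread over all groups. The GR3 vehicle pair varied more than any other pair, so the errors given for GR3 may be too small.

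Gene lists and compared libraries were chosen with earlier results of these data known. Genes named were the 10 largest rises and 10 largest falls that passed, had a symbol, did not overlap and had a mean of at least 5 CPM in 1 group, up to 3 members per list by lowest p among those that passed, and EGFR, DUSP6, BCL2L11 and MCL1. Further list members were named after their values were seen. The values of a few genes chosen this way are not reported here. Strand-blind counting, if used, would merge a gene with its antisense partner. Alternatives covered the pseudocount, filter, scaling, replicate block, the libraries fitted alone, limma-voom and each library left out.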

Additional observations from a re-analysis of the deposited data

Results flagged for a closer look

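The GR3 to parental difference itself differed between WZ4002 and vehicle for 13 of the genes named above, by a limma test of the difference of differences with Benjamini-Hochberg adjustment over all 14049 genes. Values are log2 differences, WZ4002 minus vehicle, and a negative value means that GR3 was lower relative to parental cells with the drug than without it. Which of the 158 genes pass depends strongly on single libraries, as the part on processing shows.

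Among growth signalling and surface genes, EGFR changed by -1.69 (adjusted p = 0.029), with GR3 against parental cells at -1.15 under WZ4002 and at 0.54 in vehicle. The EGFR levels with drug were 536 and 373 CPM in GR3, against 823 and 1202 CPM in parental cells. ALPP changed by -3.51 (adjusted p = 0.042), with 1191 and 1458 CPM in GR3 under WZ4002, against 640.1 and 1199.9 CPM in parental cells under WZ4002, a difference of 0.59 with the drug and 4.10 in vehicle. IL1RL1 changed by 2.89 (adjusted p = 0.0022), and TERT by 2.42 (adjusted p = 0.0093). Under WZ4002 both genes were low in both populations, IL1RL1 with 0.35 and 0.15 CPM in GR3, against 0.8 and 0.56 CPM in parental cells, and TERT with 0.02 and 0.03 CPM in GR3, against 0.03 and 0.06 CPM in parental cells. Differences at these levels (-0.43 and -0.03) are held near 0 by the pseudocount of 1.

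Further losses of the relative level in GR3 were those of KRT6A (-1.71), SOX9 (-1.39) and SESN1 (-1.39). Gains of the relative level were those of PSPH (1.11), the efflux pump genes ABCC1 (1.12) and ABCG2 (2.42), CA9 (2.73) and SLC22A20P (3.10). Under WZ4002 CA9 had 1.99 and 0.52 CPM in parental cells and SLC22A20P had 2.51 and 2.94 CPM. In GR3, ABCC1 had 70.4 and 76.3 CPM under WZ4002, against 70.2 and 84.03 CPM in vehicle. In parental cells it had 63.06 and 47.9 CPM, against 117 and 135 CPM. ABCG2 had 5.78 and 7.8 CPM in GR3 under WZ4002, against 6.96 and 4.93 CPM in vehicle. In parental cells it had 2.79 and 1.7 CPM, against 14.6 and 13.9 CPM. PSPH was lower under WZ4002 than in vehicle in both populations. ABCG2 passed in opposite directions, at 1.27 under WZ4002 and -1.15 in vehicle, and so did PSPH, at 0.51 under WZ4002 and -0.60 in vehicle. PXDN changed by 0.99 with GR3 near 0 in both conditions, at 0.06 and 0.23 CPM under WZ4002 and 0.07 and 0.25 CPM in vehicle, so the change is that of parental cells, at 114 and 126 CPM under WZ4002 and 269 and 216 CPM in vehicle.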

How the results depend on the processing

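The 3202 vehicle calls kept their sign in each of the 11 settings tried. The number of calls was between 3147 and 3433 with another pseudocount, filter, scaling, the replicate block or limma-voom, the last added after the data were seen. With the 4 libraries fitted alone it was 1053 (464 higher and 589 lower), 1033 of them shared with the 3202. That fit has fewer samples and does not borrow the spread of groups that vary less than the GR3 pair. The part of each in the drop was not tested. The median standard deviation within a pair was 0.185 in GR3 and 0.054 in GR2, both with vehicle. GR3 against GR2 gave 4947 calls in the full fit and 3516 when those libraries were fitted alone. Leaving out 1 library gave 1859 to 3101 calls, with 793 to 1510 higher and 1027 to 1591 lower, and the lone library left in a group was assumed to vary like the others. The lowest counts were without parental library 1 (1859) and parental library 2 (1931), and only 2311 of the 3101 calls without GR3 library 1 were among the 3202. Of the 95 genes chosen for naming outside the 20 largest, 42 passed in every setting, and 53 passed without each library. NOTCH1 and HLA-E never passed. NOTCH1 ranged from -0.0417 without GR3 library 2 to 0.50 without GR3 library 1, and HLA-E from -0.0352 without GR3 library 2 to 0.44 without GR3 library 1. Under WZ4002 the calls were 1614 in the libraries alone and 2944 to 3408 with 1 left out. Against GR2 they were 2935 to 4550 with 1 left out, lowest without GR2 library 1 or 2 (2935 and 3176). The 158 genes whose difference changed with the drug became 283 with the replicate block, 6 in the libraries alone, 98 by limma-voom and 25 to 1035 with 1 left out, with 1035 without GR3 library 1 and 25 without parental library 1. The labels tie the replicate numbers to no shared culture, batch or day. The gaps between same-numbered libraries correlated at 0.341 over 14049 genes for GR3 and parental cells in vehicle, and at -0.479 to 0.646 over all pairs of the 11 groups, and the replicate block gave 3433 vehicle calls, 3172 of them shared. Among lists with few calls, the count of lower genes was 1 in the TGF-beta pathway without parental library 2 and 1 among cycle inhibitors without GR3 library 1. The planned edgeR and DESeq2 fits were not run, and limma-voom on the recovered reads was run in their place. A pair of libraries per group limits the precision of every value, and the GR3 values of genes with under 10 reads there, such as GABRE, rest on few molecules.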
